A study of Mus musculus with 24 samples.

Results

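The genes described here make cholesterol, control its synthesis through the transcription factor SREBP2, or move, esterify and take up sterols. They were chosen as a list of 33 gene symbols. A gene was read through probe sets that the array annotation gives to its symbol alone, and where it had several the brightest was used. Of the 33 genes, 30 had such a probe set, and all 30 passed the filter on dim genes, among 14161 genes tested of 18194 on the array. Acat2, Soat1 and Soat2 had none and were not analysed here.

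Cholesterol is built in the endoplasmic reticulum from acetyl-CoA by way of mevalonate, the isoprenoid diphosphates, squalene and lanosterol. When membrane sterol falls, SCAP carries SREBP2 to the Golgi, where the site-1 and site-2 proteases release its active part. INSIG proteins hold SCAP back when sterol is plentiful. In liver, thyroid hormone lowers blood cholesterol, and its main receptor there, TRβ, is a nuclear receptor that binds DNA at its target genes.

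Liver RNA was hybridised to 24 Affymetrix mouse expression arrays in 8 groups of 3, each group 1 genotype with T3, the active thyroid hormone, or with PBS alone. Wild-type mice (WT) were compared with TRβ knockout mice (KO), with mice whose TRβ carries E125G and G126S (GS), changes within the part of the receptor that binds DNA, and with mice whose TRβ carries Y147F. All groups were male mice made hypothyroid for 3 weeks, so every control was hypothyroid too, and no allele was limited to a cell type in the labels. WT, KO and GS mice, 18 arrays on a C57BL/6J background, were 8 to 9 weeks old and received 0.02% methimazole, 0.5% perchlorate and 0.3% saccharin with a low-iodine diet. Their T3 dose was 20 µg per 100 g body weight, with livers taken 6 h later. Y147F mice, 6 arrays on C57BL/6JCrl in a later submission, were 10 to 11 weeks old and received 0.05% methimazole and 1% perchlorate with an iodine-deficient diet. They received T3 at 200 ng per g, which is the same dose in other units, also with livers taken 6 h later. No WT mice came with the later submission. In any comparison of Y147F with WT, the allele, the substrain, the age, the hypothyroid treatment and the submission therefore cannot be told apart. Animal numbers differed between all titles, so each array was taken as 1 animal.

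Values are log2 intensities and differences are log2 differences ± SE. Their precision is limited by the number of arrays. A gene was called, and is said to have risen or fallen, when its adjusted p in limma was under 0.05 after Benjamini-Hochberg adjustment over the 14161 genes. Array medians lay between 5.88 and 6.0 and lower quartiles between 4.63 and 4.72. Dio1, a direct T3 target, averaged 4.68 in WT with PBS and 11.31 with T3, 4.57 and 12.09 in Y147F, 5.92 and 7.74 in KO, and 5.77 and 8.29 in GS. The Thrb probe set had group means from 6.54 to 6.99, with KO not below WT, and so does not check the knockout label. Means of 6 hepatocyte markers ran from 13.18 to 13.51 over all arrays, while 6 arrays stood apart in other ways. Means of 7 Kupffer cell markers were 9.58 in GS T3 replicate 3 and 9.55 in Y147F PBS replicate 2, against 8.42 to 9.02 in the others. On the third principal component, with 6.9% of the variance, Y147F T3 replicate 3 and Y147F PBS replicate 3 lay farthest out. Means of 6 stellate cell markers were 8.58 in KO T3 replicate 1 and 8.39 in Y147F T3 replicate 1, against 8.91 to 9.56 in the others. KO T3 replicate 1 also had the lowest endothelial marker mean, 9.21. Calls that were lost without these arrays are given with and without them, and calls that were gained are counted.

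Promoters are shown for genes whose transcripts the results turn on, as the 250 bases before a transcription start in RefSeq's GRCm38.p6 annotation. They are read 5′ to 3′ on the gene's strand. Sc5d and Hsd17b7 rose with T3 and had a promoter in the table used. Hmgcs1, Msmo1 and Srebf2 are shown because they were the members that held the letters searched for as a sterol regulatory element, the binding site of SREBP2. They lie at chr9:42264301-42264550 on the minus strand (Sc5d), chr1:169969206-169969455 on the minus strand (Hsd17b7), chr13:119690101-119690350 on the plus strand (Hmgcs1), chr8:64733579-64733828 on the minus strand (Msmo1) and chr15:82147019-82147268 on the plus strand (Srebf2). Capitals mark TCACNCCA, the sterol regulatory element, and CCAAT, the box of its partner factor NF-Y, on either strand, so that the latter can read as ATTGG.
Sc5d: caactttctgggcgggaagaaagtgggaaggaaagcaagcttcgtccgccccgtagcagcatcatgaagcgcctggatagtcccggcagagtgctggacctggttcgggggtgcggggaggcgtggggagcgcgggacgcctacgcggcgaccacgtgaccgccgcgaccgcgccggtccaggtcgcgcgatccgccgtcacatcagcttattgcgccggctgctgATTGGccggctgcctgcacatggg
Hsd17b7: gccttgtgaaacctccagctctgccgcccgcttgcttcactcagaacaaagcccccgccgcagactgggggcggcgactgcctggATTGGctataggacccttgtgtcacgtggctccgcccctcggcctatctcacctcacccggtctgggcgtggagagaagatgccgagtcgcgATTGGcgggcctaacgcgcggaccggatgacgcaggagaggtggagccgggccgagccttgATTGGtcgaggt
Hmgcs1: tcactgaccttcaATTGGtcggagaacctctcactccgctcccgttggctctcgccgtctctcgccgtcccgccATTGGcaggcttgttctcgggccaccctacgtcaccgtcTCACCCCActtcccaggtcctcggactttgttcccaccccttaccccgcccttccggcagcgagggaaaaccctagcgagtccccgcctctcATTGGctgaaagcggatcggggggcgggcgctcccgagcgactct
Msmo1: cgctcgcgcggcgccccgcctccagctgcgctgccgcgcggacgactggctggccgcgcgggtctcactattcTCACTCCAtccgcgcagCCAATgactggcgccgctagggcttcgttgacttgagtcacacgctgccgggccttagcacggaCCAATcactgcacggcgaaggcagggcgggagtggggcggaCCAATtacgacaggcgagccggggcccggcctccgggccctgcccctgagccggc
Srebf2: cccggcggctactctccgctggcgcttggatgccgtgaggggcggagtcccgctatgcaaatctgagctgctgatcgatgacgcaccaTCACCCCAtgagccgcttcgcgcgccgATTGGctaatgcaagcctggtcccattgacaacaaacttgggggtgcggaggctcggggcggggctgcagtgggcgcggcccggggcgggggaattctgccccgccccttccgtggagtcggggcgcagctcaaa
Hmgcs1, Msmo1 and Srebf2 each held TCACNCCA once, and Hsd17b7, Hmgcs1 and Msmo1 each held CCAAT 3 times. The annotated Hsd17b7 gene reaches chr1:169969242, which is inside the window shown. The last bases of that window, with its last ATTGG, thus lie within the gene.

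Of the 33 listed genes, 26 had at least 1 promoter in the table, 32 promoters in all. TCACNCCA was found in 9.38% of these and in 3.67% of the 32851 promoters in the table. CCAAT was found in 65.6% of member promoters against 33.8% of all, and GGGCGG, the Sp1 box, in 68.8% against 32.7%. AGGTCA, the half-site that thyroid hormone receptors bind, was found in 15.6% of member promoters and in 14.0% of all. The direct repeat DR4, in which 4 bases part a pair of these half-sites, was in none of the member promoters and in 0.0152% of all promoters. Both strands were searched. AGGTCA lies within the direct repeat, and the other motifs were counted independently of each other. A match describes these letters only, and no match says only that they are not in this window.

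The first comparison asks which steps of the pathway T3 moved in 6 h in a liver with an intact receptor. In WT, 4 of the 30 genes rose and 1 fell, 16.7% against 10.6% of all genes tested, of which 5.72% rose and 4.89% fell. The rises were in Hsd17b7 and Sc5d, which act late in the conversion of lanosterol to cholesterol, in Npc1, the lysosomal cholesterol exporter, and in Scarb1, the receptor that takes up cholesteryl ester from HDL. Stard4, a carrier of sterol between membranes, fell. None of the 11 tested enzymes from acetyl-CoA to lanosterol was called, nor were SREBP2 or its 5 regulators, although Scap was called in 5 of 8 alternative fits. In whole liver, fewer cells of a type and less RNA per cell cannot be told apart.

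Hsd17b7, the 3-ketosteroid reductase that reduces the keto group left when a methyl group is removed, read 9.79, 9.33 and 10.15 in the WT PBS arrays and 10.83, 10.49 and 10.63 with T3. All T3 arrays lay above all PBS arrays, and the lowest value was PBS replicate 2. The rise was 0.89 ± 0.21, or 1.86-fold (adjusted p = 0.00713). Sc5d, the desaturase that introduces the C5 double bond of lathosterol, read 13.01, 12.74 and 13.22 with PBS and 13.72, 13.53 and 13.64 with T3. Its groups did not overlap either, and the same PBS array was lowest. The rise was 0.64 ± 0.15, or 1.56-fold (adjusted p = 0.00669). Without WT PBS replicate 2 both calls were lost, with Hsd17b7 at 0.68 (adjusted p = 0.0589) and Sc5d at 0.51 (adjusted p = 0.0522). Other probe sets of these genes moved the same way, with differences of 1.50 and 0.74 for Sc5d, and of 0.62, 0.74 and, in a dim probe set, 0.12 for Hsd17b7.

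Scarb1 read 10.95, 11.08 and 10.76 in WT with PBS and 11.64, 11.53 and 11.43 with T3. It rose by 0.60 ± 0.11, or 1.52-fold (adjusted p = 0.000604), with no overlap between the groups. Its other probe sets both gave 0.54. Npc1 read 10.52, 10.34 and 10.25 with PBS and 10.85, 10.95 and 10.83 with T3. That rise was 0.51 ± 0.11, or 1.43-fold (adjusted p = 0.00247), and rested on its only probe set, again with no overlap. Stard4 ran the other way, from 11.47, 11.22 and 11.55 with PBS to 10.93, 10.85 and 10.93 with T3. Every T3 array was below every PBS array, and the fall was -0.51 ± 0.11 (adjusted p = 0.00329), with -0.46 and -0.66 in its other probe sets.

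Around these 5 genes, the rest of the pathway showed no common direction in WT. Of the 30 genes, 16 were above and 14 below 0, with a median of 0.02 against -0.033 over all genes tested. The groups did not overlap for 10 of the 30 genes, 33.3% against 29.5% of all genes. From acetyl-CoA to the isoprenoid diphosphates, the 8 genes tested ran from -0.51 for Fdps, farnesyl diphosphate synthase, to 0.26 for Mvd, mevalonate diphosphate decarboxylase. Fdft1, squalene synthase, Sqle, squalene epoxidase, and Lss, lanosterol synthase, stood at -0.29, -0.01 and -0.06. Among the 8 enzymes after lanosterol, Cyp51, which removes the first methyl group, stood at -0.44, against 0.56 ± 0.24 for the methyl oxidase Msmo1 (adjusted p = 0.145) and 0.47 for Dhcr7, the reductase that ends a branch of the route to cholesterol. Srebf2, which encodes SREBP2, read 8.2, 8.23 and 8.21 with PBS and 8.34, 8.15 and 8.34 with T3. These arrays overlapped, and the difference of 0.06 had a 95% interval from -0.11 to 0.24. Scap, the escort of SREBP2, came nearest to a call in its group, at 0.29 ± 0.10 (adjusted p = 0.0621). In the alternative fits that called it the adjusted p lay between 0.0385 and 0.0474. Its T3 arrays, 11.47, 11.35 and 11.45, all lay above its PBS arrays, 11.08, 11.07 and 11.25. Lcat, the plasma enzyme that esterifies cholesterol on HDL, stood at -0.21 ± 0.07 (adjusted p = 0.0843), and was called with the variance trend and robust moderation (adjusted p = 0.0469).

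Markers of some other cell types were lower in WT with T3, though none was called. Means of 7 sinusoidal endothelial markers were 9.48 to 9.55 in T3 arrays against 9.75 to 9.81 in PBS arrays. For 4 cholangiocyte markers the means were 6.35 to 6.43 against 6.52 to 6.75. Kupffer cell means overlapped, at 8.42 to 8.69 against 8.61 to 8.80, as did stellate cell means, at 9.06 to 9.31 against 9.06 to 9.39. Means of T and B cell markers overlapped too. Of 6 hepatocyte markers 1 fell, and their means overlapped, at 13.32 to 13.51 against 13.31 to 13.51. The part of these differences in the results for the members was not tested.

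**Figure D1:**
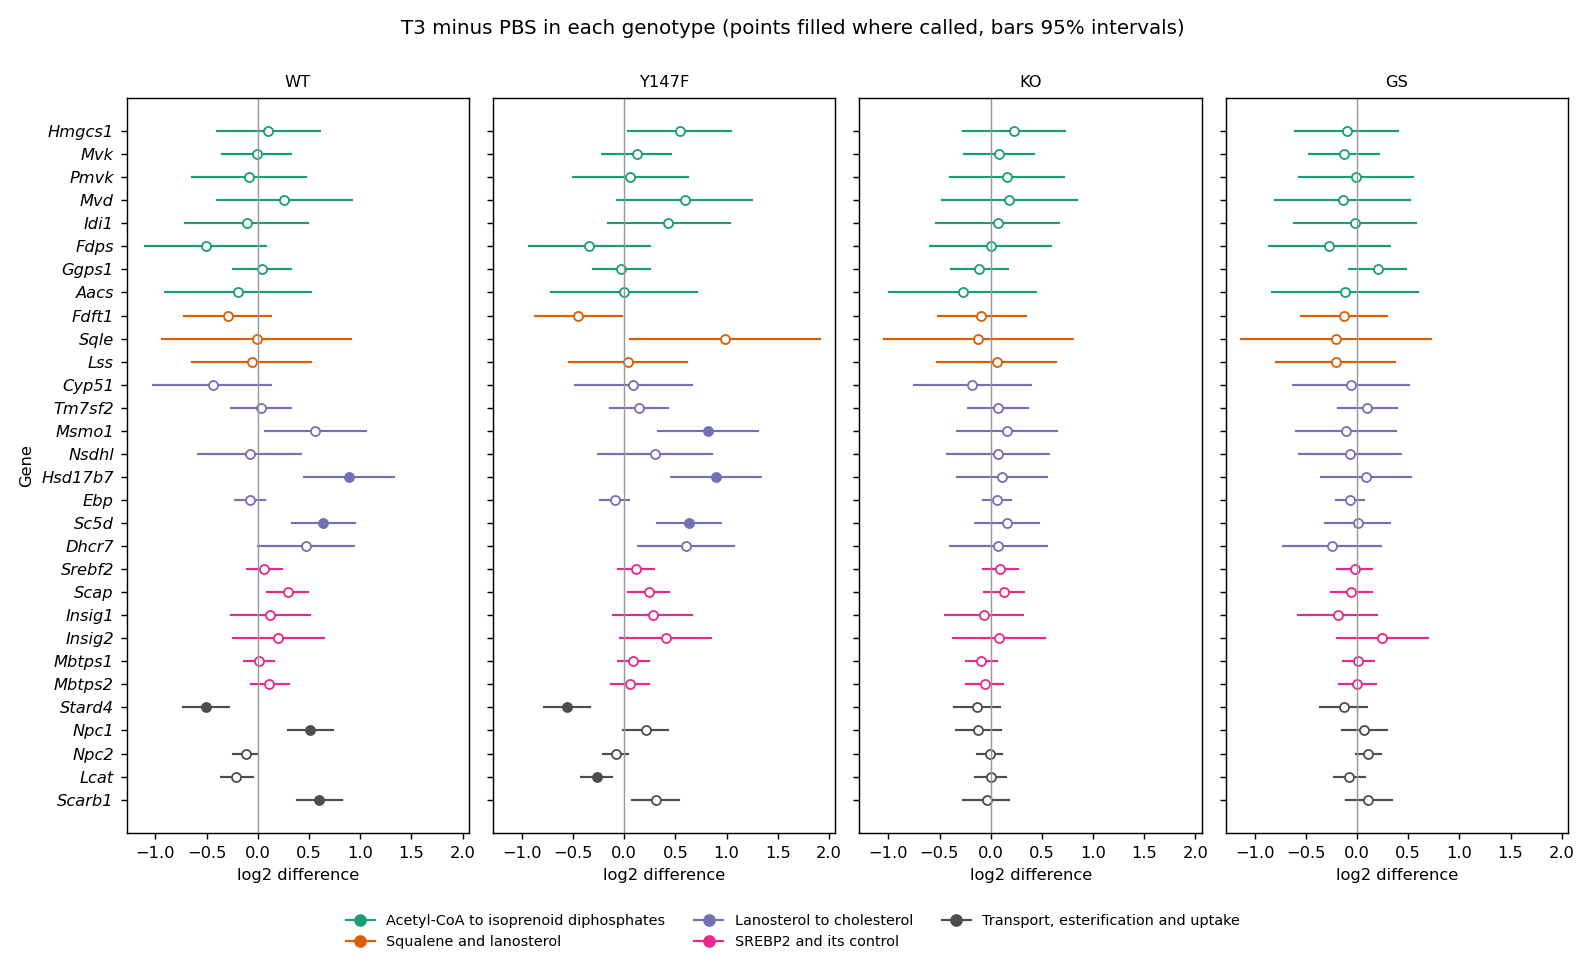
T3 minus PBS (log2 difference, horizontal axis) for the 30 genes in the 4 genotypes, ordered by role, with points for the difference, bars for the 95% interval and filled points for calls in limma. Filled points are seen in WT and Y147F, 5 each, and none in KO or GS.

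In KO and GS the same injection called none of the 30 genes, where 0.177% and 0.148% of all genes tested were called. None reached an unadjusted p of 0.05 in limma in either genotype. The differences of the 30 genes ran from -0.27 to 0.23 in KO and from -0.27 to 0.24 in GS. T3 and PBS arrays were separate for none of the members in KO, against 15.2% of all genes, and for 3 of 30 in GS, 10% against 13.1%. Sc5d, for one, read 13.16, 13.54 and 13.16 with PBS in KO and 13.53, 13.1 and 13.7 with T3, and 13.78, 13.65 and 13.4 against 13.77, 13.59 and 13.49 in GS. Both pairs of groups overlapped. In its other probe sets Sc5d differed by 0.52 and 0.59 in KO, above the range given here for the brightest probe sets. In GS they differed by 0.16 and 0.11. With the mean of probe sets no member was called in KO or GS. The KO arrays with T3 were widely spread for some members, as in Sqle, from 9.21 to 11.43 (SD 1.11). Without KO T3 replicate 3, 32 of the 88 uncalled member results that use this group changed sign.

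The difference between responses was tested directly, and the contrasts with WT share its arrays. In KO, 2 of 30 genes had a smaller response than in WT, 6.67% against 3.09% of all genes, with 2.05% lower than in WT. They were Scarb1 at -0.64 ± 0.15 (adjusted p = 0.0202) and Npc1 at -0.63 ± 0.15 (adjusted p = 0.0208). Scarb1 in KO read 11.7, 11.45 and 11.82 with PBS and 11.5, 11.79 and 11.55 with T3, and Npc1 read 10.74, 10.48 and 10.62 against 10.3, 10.66 and 10.52. These KO arrays overlapped for both genes, whereas the WT arrays did not. Leaving out single arrays ended each call in 5 of 12 fits. For Scarb1 these were the fits without WT T3 replicate 1, WT PBS replicate 3, KO T3 replicate 1 or 3 or KO PBS replicate 3, with an adjusted p up to 0.063. For Npc1 they were those without WT T3 replicate 2, WT PBS replicate 2 or 3, KO T3 replicate 1 or KO PBS replicate 1, with an adjusted p up to 0.0637. Neither gene was called without KO T3 replicate 1, which stood apart in its stellate and endothelial markers. When the model held just the 4 groups concerned, Scarb1 also lost its call (adjusted p = 0.0675). Hsd17b7 and Sc5d were not called, at -0.78 ± 0.30 (adjusted p = 0.223) and -0.48 ± 0.21 (adjusted p = 0.332). For these 2 genes a difference between KO and WT responses was thus not shown with all arrays fitted. Without KO T3 replicate 3, 1 member that was not called with all arrays was called as lower in KO, and is not named here.

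In GS no response was called as different from WT, where 2.92% of all genes were, though 8 of the 30 genes had an unadjusted p under 0.05 in limma, as did 13.6% of all genes. Hsd17b7 stood at -0.80 ± 0.30 (adjusted p = 0.207), Sc5d at -0.63 ± 0.21 (adjusted p = 0.137), Scarb1 at -0.48 ± 0.15 (adjusted p = 0.104) and Npc1 at -0.44 ± 0.15 (adjusted p = 0.151). Between GS and KO responses, limma called none of the 30 genes and 0% of all genes, with no member at an unadjusted p under 0.05. The 95% interval of that difference was -0.16 to 0.47 for Scarb1 and -0.65 to 0.60 for Hsd17b7.

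In Y147F, 3 of 30 genes rose with T3 and 2 fell, 16.7% against 11.6% of all genes, of which 5.52% rose and 6.09% fell. Hsd17b7 read 9.48, 9.31 and 9.26 with PBS and 10.43, 10.0 and 10.3 with T3, a rise of 0.90 ± 0.21 (adjusted p = 0.00711). Sc5d read 13.0, 13.11 and 12.76 and then 13.64, 13.47 and 13.66, a rise of 0.63 ± 0.15 (adjusted p = 0.00771). Neither gene had overlapping groups. Stard4 fell by 0.56 ± 0.11 (adjusted p = 0.00152), from 11.31, 11.21 and 11.43 to 10.72, 10.6 and 10.95. All of its T3 arrays lay below its PBS arrays, as in WT.

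Msmo1 and Lcat completed the calls in Y147F. Msmo1 read 11.68, 11.64 and 11.31 with PBS and 12.55, 12.02 and 12.52 with T3, a rise of 0.82 ± 0.24 (adjusted p = 0.0271). Lcat read 13.1, 13.14 and 13.1 and then 12.81, 12.92 and 12.81, and fell by 0.27 ± 0.07 (adjusted p = 0.0197). The groups were separate for both genes, but both calls depended on single arrays and on the processing. Msmo1 was not called with the mean of its probe sets (0.53, adjusted p = 0.0752) or with array weights (0.54, adjusted p = 0.141), nor Lcat with only the Y147F arrays fitted (adjusted p = 0.0872). Without Y147F PBS replicate 3 Msmo1 stood at 0.70 (adjusted p = 0.11), without T3 replicate 1 at 0.72 (adjusted p = 0.116) and without T3 replicate 3 at 0.74 (adjusted p = 0.0819). Lcat lost its call without PBS replicate 2 (adjusted p = 0.0621), T3 replicate 1 (adjusted p = 0.0792) or T3 replicate 3 (adjusted p = 0.0584). Hsd17b7, Sc5d and Stard4 kept their calls in each of these fits. The fit without PBS replicate 3 and the fit without T3 replicate 3 each called 1 further member as higher with T3, not named here.

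Scarb1 was not called in Y147F, at 0.31 ± 0.11 (adjusted p = 0.0691), with 11.08, 10.89 and 11.25 against 11.36, 11.34 and 11.44. It was called with quantile normalisation (adjusted p = 0.0495), the mean of probe sets (adjusted p = 0.0281) and array weights (adjusted p = 0.0353). Npc1 stood at 0.21 ± 0.11 (adjusted p = 0.241). The difference of these responses from those in WT was not called for any of the 30 genes or for any gene tested, 0% of all, and no member had an unadjusted p under 0.05 in limma. Its 95% interval was -0.61 to 0.03 for Scarb1, -0.62 to 0.01 for Npc1 and -0.62 to 0.62 for Hsd17b7. Sqle had the largest T3 difference in Y147F, 0.98, not called, with 9.4, 8.7 and 9.88 against 8.69, 7.81 and 8.53 with PBS. Its response was also the farthest above that in WT, by 1.00. Hmgcs1 stood at 0.54 in Y147F, without overlap, and was called with only the Y147F arrays fitted (adjusted p = 0.0112). Members above 0 numbered 22 of 30 in Y147F, with a median of 0.13 against -0.005 over all genes. The groups did not overlap for 12 of the 30 genes, 40% against 26% of all genes. Means of the Kupffer cell markers in Y147F were 8.46 to 9.55 with PBS against 8.61 to 8.70 with T3, with none of 7 called. Elsewhere 1 of 7 endothelial markers rose, and 1 of 3 T and B cell markers and 1 of 6 hepatocyte markers fell. The part of these cells in the values of the members was not tested.

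**Figure D2:**
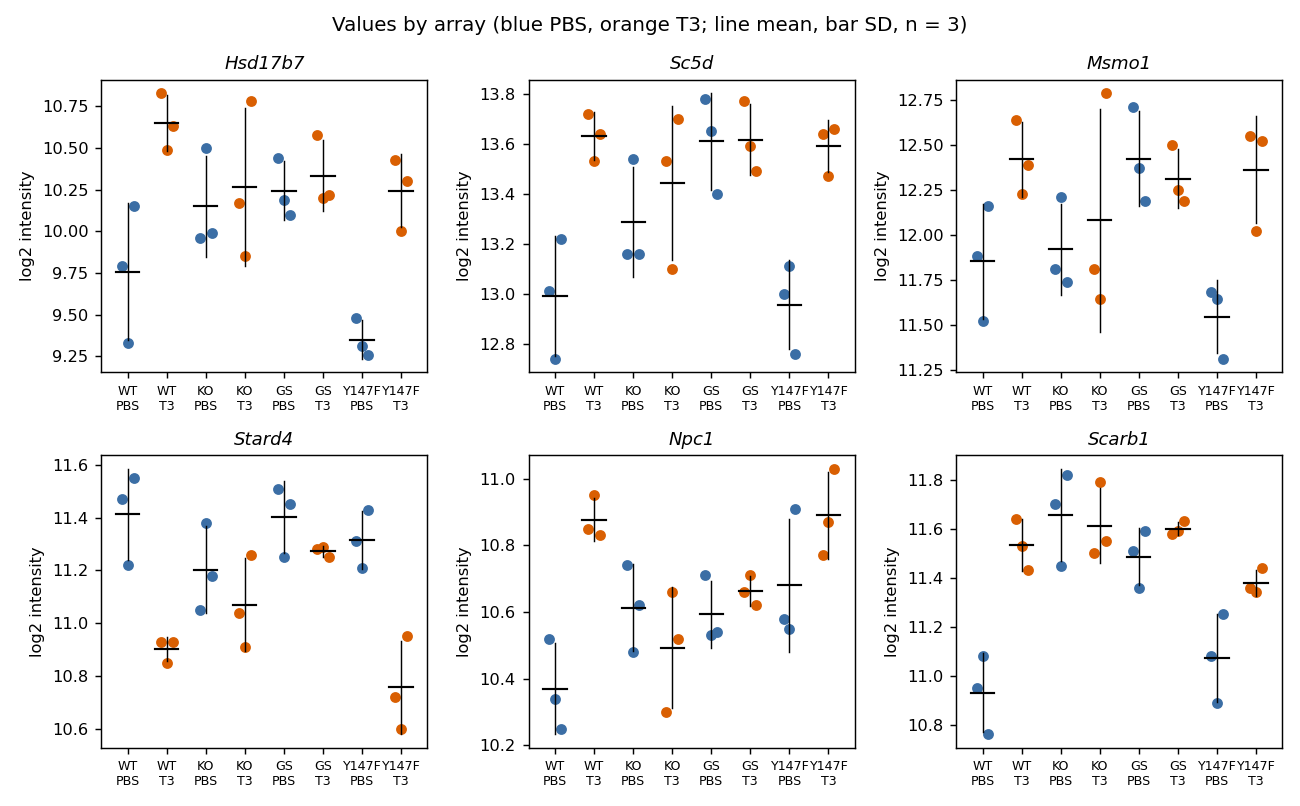
Log2 intensity (vertical axis) of 6 members called with T3 (Hsd17b7, Sc5d, Msmo1, Stard4, Npc1 and Scarb1), 1 point per array, with a line at each group's mean and a bar for its SD, in the 8 groups. Scarb1 in WT with PBS runs from 10.76 to 11.08, below all arrays of WT with T3 and of KO and GS with or without T3.

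Genotypes were next compared without T3, which asks where the pathway stood in hypothyroid livers before the hormone was given. Against WT, Scarb1 was the 1 gene of 30 that was higher in KO, 3.33% against 6.87% of all genes called, with 3.76% higher. It stood at 0.72 ± 0.11, or 1.65-fold (adjusted p = 0.000349), and all KO PBS arrays lay above all WT PBS arrays. Kupffer cell marker means were 8.86 to 9.02 in these KO arrays against 8.61 to 8.80 in WT, with 1 of 7 called higher, and endothelial means were 9.58 to 9.66 against 9.75 to 9.81, with none of 7 called. Their part in the result was not tested. That level in KO without T3, 11.66 ± 0.19 (SD, n = 3), was next to that of WT with T3, 11.53 ± 0.10, and the arrays of these groups overlapped. The difference with PBS and the smaller T3 response of Scarb1 in KO rest on the same WT and KO PBS arrays. Groups were separate for 5 of the 30 genes, 16.7% against 23.6% of all genes.

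In GS with PBS, 3 of 30 genes were higher than in WT, 10% against 2.95% of all genes called, with 1.97% higher. Scarb1 stood at 0.56 ± 0.11 (adjusted p = 0.00467), with 11.51, 11.36 and 11.59 in GS. Scap stood at 0.53 ± 0.10 (adjusted p = 0.00264), with 11.74, 11.65 and 11.61 in GS. Sc5d stood at 0.62 ± 0.15 (adjusted p = 0.0248). No GS array of these 3 genes overlapped WT with PBS. Scap lost its call when its probe sets were averaged (0.25, adjusted p = 0.347), where the second probe set averaged 5.17. The call of Sc5d was lost without WT PBS replicate 1 or 2 or GS PBS replicate 1 or 2, with an adjusted p up to 0.146, and also with the mean of probe sets (adjusted p = 0.0536) and with only the arrays compared (adjusted p = 0.0837), while Scarb1 kept its call in all fits run.

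Beyond these calls, 25 of the 30 genes were above 0 in GS against WT, with a median of 0.25 against -0.005 over all genes. An unadjusted p under 0.05 in limma was reached by 15 genes of the 30, and by 14.1% of all genes. Groups did not overlap for 16 of the 30 genes, 15 of them higher in GS, which is 53.3% against 20.4% of all genes, with 10.4% of all genes higher. Many of the 30 genes varied together from array to array, as described below, so these counts are not of independent genes. That holds for the counts of members in every comparison here. Sqle, the epoxidase that makes the substrate of lanosterol synthase, had the largest difference of the 30 at 1.22 ± 0.44 (adjusted p = 0.166), with 11.32, 10.88 and 10.86 in GS and 9.57, 9.36 and 10.46 in WT. All GS arrays of Sqle lay above WT, whose own arrays spanned more than 1 log2 unit. Idi1, isopentenyl diphosphate isomerase, stood at 0.81 ± 0.29 (adjusted p = 0.155), Dhcr7 at 0.76 ± 0.23 (adjusted p = 0.0774) and Mvk, mevalonate kinase, at 0.55 ± 0.16 (adjusted p = 0.0742). With only the arrays compared, Idi1 and Mvk were called (adjusted p = 0.0415 for each). Tm7sf2, a sterol reductase that acts after Cyp51, stood at 0.46 ± 0.14 (adjusted p = 0.0767). All 8 enzymes after lanosterol were above 0, with a median of 0.60, and 7 of them were among the 15.

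GS and KO were also compared with each other with PBS. None of the 30 genes was called by limma, against 0.0847% of all genes, and 4 had an unadjusted p under 0.05, as did 8.53% of all genes. Of the 30, 24 were higher in GS, with a median of 0.23 against -0.006 over all genes. Groups were separate for 4 of the 30 genes, 13.3% against 14.4% of all genes. Differences of GS from WT and of GS from KO share the GS arrays.

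Y147F lay at the other end of the range. Against WT with PBS, 23 of the 30 genes were below 0, with a median of -0.24 against 0.009 over all genes, but none was called by limma, where 0.0847% of all genes were, and 10 had an unadjusted p under 0.05, as did 13.8% of all genes. Groups did not overlap for 13 of the 30, 10 of them lower in Y147F, which is 43.3% against 17.7% of all genes, with 7.63% of all genes lower. Sqle stood at -1.45 ± 0.44 (adjusted p = 0.177), with 8.69, 7.81 and 8.53 in Y147F, all below the WT arrays. Idi1 stood at -0.83 ± 0.29 (adjusted p = 0.218) and all 8 genes from acetyl-CoA to the isoprenoid diphosphates were below 0. The allele and the separate submission cannot be told apart in these values.

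**Figure D3:**
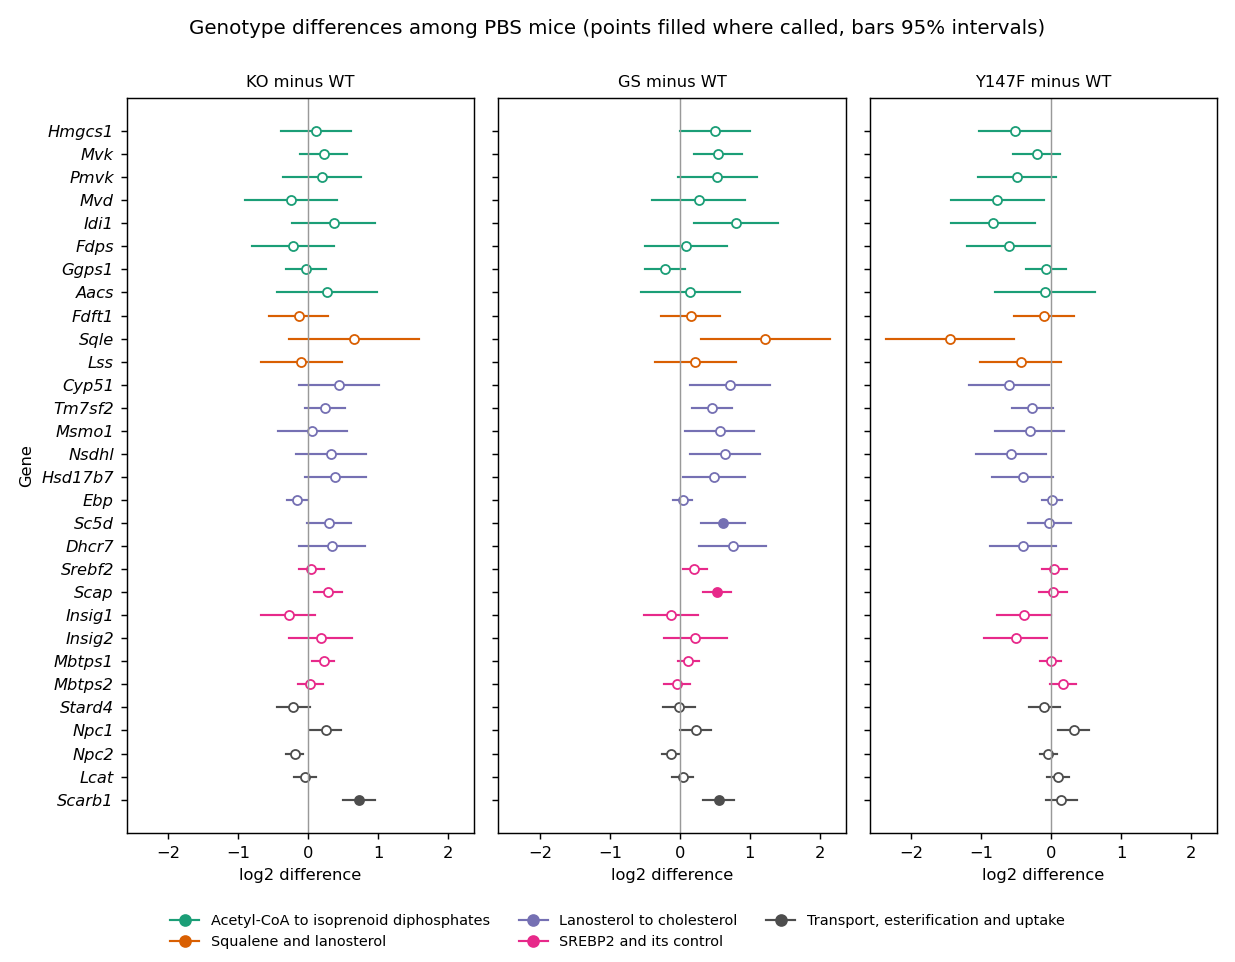
Differences between genotypes with PBS (log2, horizontal axis) for the 30 genes by role, with 95% intervals and filled points for calls in limma. Most genes lie above 0 for GS against WT (25 of 30) and below 0 for Y147F against WT (23 of 30), with few filled points.

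Over the 8 groups, 17 of the 30 genes had their lowest mean in Y147F with PBS and 16 had their highest in GS with PBS. Sqle had the widest range, from 8.34 ± 0.47 (SD, n = 3) in Y147F with PBS to 11.02 ± 0.26 in GS with PBS, with KO with PBS at 10.45 ± 0.63 and WT with PBS at 9.80 ± 0.58 between. Neighbours in that order overlapped in their arrays from WT to KO and from KO to GS, while Y147F was separate from WT. Group means of Ebp, the sterol isomerase, Npc2, which hands cholesterol to Npc1 in the lysosome, and Srebf2 differed by no more than 0.21 over all 8 groups. Insig2, which encodes the other INSIG protein, ranged from 10.82 in Y147F with PBS to 11.79 in GS with T3. With all arrays fitted and no weights it was not called in any comparison. Among the alternatives, fits without single arrays aside, it was called only with array weights for T3 in Y147F (0.74, adjusted p = 0.0136, against 0.41 without weights). Its Y147F arrays with T3 read 11.33, 11.62 and 10.72. Mbtps1 and Mbtps2, the site-1 and site-2 proteases, ranged over 0.22 and 0.26.

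The enzymes of the pathway also varied together from array to array within groups. For 18 synthesis enzymes (those tested except Aacs, acetoacetyl-CoA synthetase), the mean log2 value was 10.87, 10.4 and 11.45 in KO with T3. In WT with PBS it was 10.73, 10.42 and 10.95, and in GS with PBS 11.35, 11.12 and 11.05. Y147F with PBS gave 10.32, 10.18 and 10.26. The KO arrays with T3 thus spanned more than the means of any 2 first-submitted groups were apart, while Y147F with PBS lay below all arrays of WT.

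**Figure D4:**
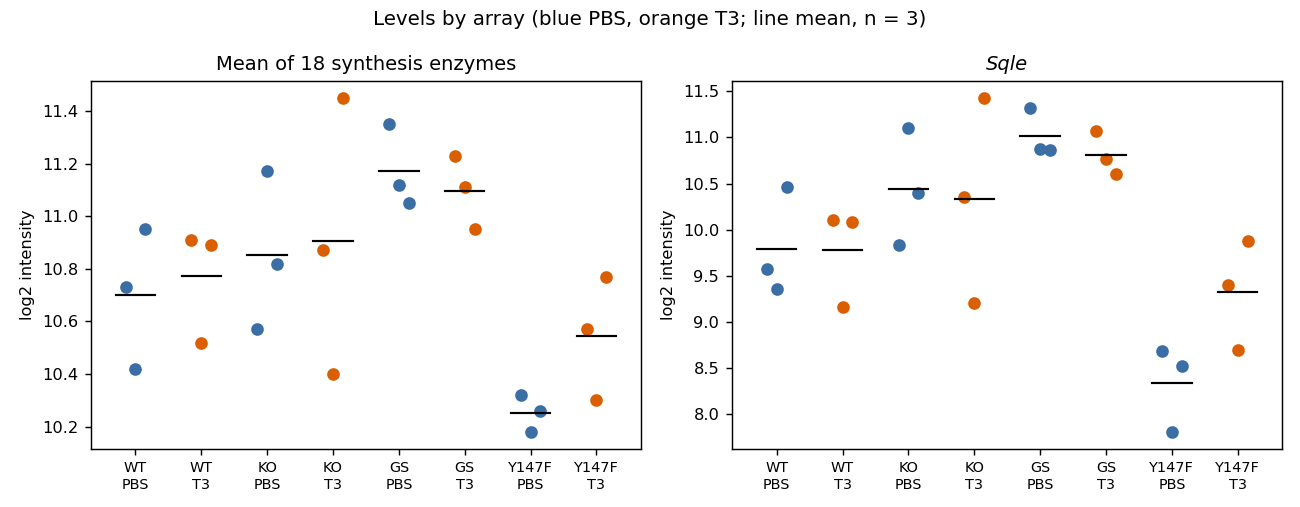
Mean log2 intensity of 18 synthesis enzymes (left) and log2 intensity of Sqle (right) in each array (vertical axes), by group, with a line at the group's mean. On the left the 3 KO arrays with T3 run from 10.4 to 11.45, the widest span of the 8 groups.

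After each group's mean was subtracted, the deviations of these enzymes had a median Pearson r of 0.79 over 153 pairs, of which 131 were above 0.5, in a range from -0.63 to 0.95. These are descriptions over 24 arrays that share their hybridisation and normalisation. The median SD within groups was 0.32 for the enzymes, against 0.12 for all genes tested. Sqle varied most, with an SD of 0.61, higher than 99.7% of genes tested, and an r of 0.96 with the mean of the other enzymes. Lss, Nsdhl, a decarboxylating sterol dehydrogenase, and Idi1 followed at 0.95, 0.95 and 0.94.

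Beyond the 18 enzymes, Stard4 had an r of 0.85 with the enzyme mean, Insig1, itself a target of SREBP2, 0.75, and Scap 0.74. Srebf2 stood at 0.47, with an SD of 0.10. Lcat stood at -0.61, Scarb1 at -0.43 and Npc1 at -0.20. Among the 18 enzymes the exception was Ggps1, which makes the geranylgeranyl diphosphate of a side branch, at -0.38. Of genes outside the list, Rdh11, a retinol dehydrogenase, had an r of 0.94, Acss2, acetyl-CoA synthetase, 0.89, and Tmem97, which binds NPC1, 0.74, against -0.03 for Srebf1, which encodes SREBP1. Means of cholangiocyte markers also moved with the enzymes, at an r of 0.67, against -0.40 for Kupffer cell markers and -0.18 for hepatocyte markers. Their part in the shared variation was not tested.

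**Figure D5:**
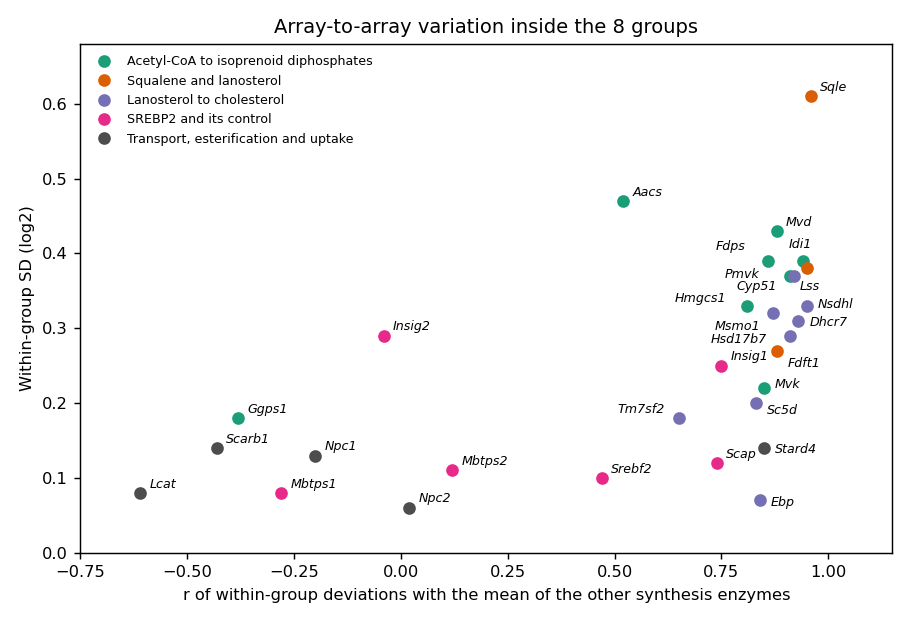
Pearson r of within-group deviations with the mean of the other synthesis enzymes (horizontal axis) and spread within groups (SD of log2 values, vertical axis) for the 30 genes over 24 arrays, coloured by role. Sqle lies at the upper right (r 0.96, SD 0.61), and Lcat and Scarb1 lie left of 0.

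Ranked by likeness to the mean of the other members over all 24 arrays, group differences included, Sqle and Nsdhl came first with an r of 0.96 and Idi1 with 0.95. Pmvk, phosphomevalonate kinase, and Dhcr7 followed at 0.93. Hsd17b7, Msmo1 and Sc5d, the enzymes called with T3 in WT or Y147F, had lower values of 0.71, 0.71 and 0.68. At the bottom were Ggps1 at -0.30 and Mbtps2 at -0.42.

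Further genes of sterol handling and of mevalonate use were listed beside the members, 34 in all, of which 29 were tested. With T3 in WT, 4 rose and 1 fell, 17.2% against the 10.6% of all genes given above. Erlin1, which encodes a cholesterol-binding protein of the endoplasmic reticulum, had the smallest p and fell by 0.95 ± 0.08 (adjusted p = 2.92e-08). The sterol exporters Abcg8 (1.06 ± 0.18) and Abcg5 (0.75 ± 0.16) rose, as did Srebf1 (0.69 ± 0.13) and Pggt1b, a subunit of the geranylgeranyl transferase (0.23 ± 0.07, adjusted p = 0.0456). In Y147F, 3 of the 29 rose and 5 fell, 27.6% against the 11.6% of all genes given above. Among them were Erlin1 (-0.85 ± 0.08, adjusted p = 1.63e-07), Abcg8 (1.00 ± 0.18) and Mylip, the ligase that marks lipoprotein receptors for degradation (-0.45 ± 0.13, adjusted p = 0.0202). None of the 29 was called with T3 in KO or GS, where 5 and 4 had an unadjusted p under 0.05 in limma, as did 10.4% and 7.01% of all genes. Abcg5 in KO stood at 0.64 ± 0.16 with an adjusted p of 0.121. In GS it stood at 0.56 ± 0.16 with an adjusted p of 0.373. Its response differed from that in WT by -0.10 ± 0.23 and -0.18 ± 0.23, neither called. Abcg8 stood at 0.57 ± 0.18 in KO and 0.60 ± 0.18 in GS. T3 and PBS arrays did not overlap for these exporters in either genotype. The fall of Erlin1 was smaller in KO and in GS than in WT, by 0.66 ± 0.11 (adjusted p = 0.0011) and 0.77 ± 0.11 (adjusted p = 0.000231). The response of Srebf1 in GS was lower than in WT, at -0.96 ± 0.18 (adjusted p = 0.00386). These made 1 of 29 genes called for KO, 3.45% against 3.09% of all genes, and 2 of 29 for GS, 6.9% against 2.92%.

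With PBS, Vldlr, which encodes the very low density lipoprotein receptor, was lower in KO than in WT at -1.95 ± 0.30 (adjusted p = 0.000398), and so was the oxysterol-binding protein gene Osbp at -0.32 ± 0.08 (adjusted p = 0.0239). These were the 2 of 29 genes called there, 6.9% against 6.87% of all genes, and they were named after their values were seen. In GS, Erlin1 was the only 1 of the 29 called as different from WT, at -0.36 ± 0.08 (adjusted p = 0.0116), which is 3.45% against 2.95% of all genes. Vldlr in GS stood at -0.98 ± 0.30 against WT (adjusted p = 0.0785), not called, with all GS arrays below all WT arrays.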

How the data were processed

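Total RNA from 24 livers, 200 ng per array, was measured on arrays with 45101 probe sets. The submitters' processing notes name RMA, version not given in the sources used here. As deposited by the authors, the 18 intact columns hold log2 intensities, which their range also showed. In the 6 deposited Y147F columns the values had lost their decimal mark and are a score as they stand. Each mark was restored where it made the value lie between 3 and 16, and cells that could have been day numbers were set missing (781 cells, 0.289%). The same damage applied to the 18 intact columns left 0 of 809299 restored values wrong, which checks the steps and not the assumption. Nsdhl has no value in Y147F T3 replicate 1, and its fits leave that array out.

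In the array annotation 34958 probe sets carry a single symbol, 932 several and 9211 no symbol. A gene was tested if its brightest probe set was at or above the 40th percentile of the array for 3 or more arrays. The 14161 genes were fitted in limma 3.58.1 (R 4.3.3) with a mean for each of the 8 groups, with 16 residual and 4.28 prior degrees of freedom. Tests were two-sided, with Benjamini-Hochberg adjustment over all genes of a contrast, and the steps were tested on simulated data. Members and lists were chosen with earlier results of these data known, so no count over them is independent support. Named are all members, with array values for those called in a contrast and for a few others, and up to 6 called genes of the added lists with the smallest p for T3 in WT. Mylip, Vldlr, Osbp, Rdh11, Acss2 and Tmem97, also from those lists, were named outside that rule after their values were seen. Promoters shown are those of members called with T3 in WT that had one in the table used and lie outside chromosome 18. Npc1 and Stard4 lie on that chromosome. To these the 3 holding TCACNCCA were added after the search. Alternatives were quantile normalisation, no filter or one at the 60th percentile, averaging all probe sets of a gene, robust moderation with a variance trend, only the arrays compared, array weights, the first-submitted arrays alone, and leaving out each array in turn.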

Additional observations from a re-analysis of the deposited data

Results flagged for a closer look

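The T3 response of KO against that of WT, tested as 1 contrast in limma, was below 0 for Npc1 (-0.63 ± 0.15, adjusted p = 0.0208) and for Scarb1 (-0.64 ± 0.15, adjusted p = 0.0202). All 3 WT arrays with T3 were above all 3 with PBS for both genes, and the KO arrays overlapped. Both genes also stood higher in KO than in WT with PBS, by 0.25 ± 0.11 for Npc1, which was not called (adjusted p = 0.196), and by 0.72 ± 0.11 for Scarb1. These differences rest on the same PBS arrays.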

How the results depend on the processing

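Scarb1 (WT with T3, KO and GS against WT), Npc1 and Stard4 (WT with T3), and Hsd17b7, Sc5d and Stard4 (Y147F with T3) kept direction and call under all alternatives run, and no called value changed sign. The count of members called in KO against WT with PBS was 2, against 1, with quantile normalisation, the 60th percentile filter, the variance trend and array weights, the added gene being Npc2 (-0.19 to -0.20). In GS against WT with PBS it was 1, against 3, with the mean of probe sets. For the T3 response of GS against WT it was 1, against 0, with the mean of probe sets (Sc5d, -0.87, adjusted p = 0.0337) and with array weights (Npc1, -0.46, adjusted p = 0.0423). For that of KO against WT it was 1, against 2, with only the arrays compared. Leaving out 1 array at a time gave 0 to 2 calls there (0 without WT PBS replicate 3 or KO T3 replicate 1), 3 to 6 for T3 in WT (3 without PBS replicate 2), 3 to 6 for T3 in Y147F (3 without T3 replicate 1) and 2 to 4 in GS against WT. The cause of these changes was not tested. Dim probe sets, such as the second of Scap at 5.17, lie near the arrays' lower quartiles and limit what an average of probe sets shows. No paired analysis was possible because the titles carry animal numbers that differ between all arrays, and the replicate numbers 1 to 3 used here only name arrays in the order of deposit.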
